A study of Arabidopsis thaliana with 6 samples.

Results

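The light and temperature regulators of germination examined here are 10 genes, chosen by name from the 32833 genes of the deposited table. They are PIL5 (also PIF1), SOM, SPT, DAG1, DAG2, MFT, RVE1, RVE2, PHYA and PHYB. RNA-seq was made from fresh seeds of Arabidopsis thaliana, with 3 libraries of the asf1a1b double mutant and 3 of its wild type, Columbia-0 (Col-0). The mutant is affected in both ASF1 genes, which encode chaperones that hand histones H3 and H4 to chromatin; the sources used here name neither its alleles nor the age of the plants. All plants were grown in long days at about 21°C, seeds were harvested within a day, and the labels also speak of cold stratification for 4 days without saying whether the sequenced seeds had received it. The labels do not say whether the 3 libraries per genotype stem from different plants, so each p-value reflects the spread among these 6 samples and no more, and that spread may be technical.

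A fresh seed decides whether to germinate by reading light and temperature. Phytochromes are the red and far-red light receptors. When active they cause the loss of PIL5, a basic helix-loop-helix (bHLH) repressor of germination. This shuts down a chain in which SOM and other factors keep abscisic acid high and gibberellin low. SPT, a relative of PIL5, holds back germination in a way that depends on temperature and light. The Dof zinc finger factors DAG1 and DAG2 act in the seed's light response with opposite effects, RVE1 and RVE2 are MYB-like relatives of the clock factors CCA1 and LHY that favour dormancy, and MFT belongs to the family of the flowering signal FT and acts in abscisic acid and gibberellin signalling.

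Values are the deposited TPM (transcripts scaled to a fixed total), whose totals differ between libraries, so they had been rescaled in a way the sources do not state; they are written as rescaled TPM. From 42771330 to 56017458 reads per asf1a1b library and 44306635 to 47993629 per Col-0 library could be recovered from them. ASF1A had 2.33 ± 0.237 rescaled TPM in asf1a1b and 16.7 ± 1.23 in Col-0, and ASF1B had 0.256 ± 0.0902 and 2.97 ± 1.21 (SD, n = 3 each), so both targeted genes followed the labels. Storage protein, oleosin and EM genes, the markers of seed tissue, summed to between 72450 and 96250 rescaled TPM in asf1a1b and between 70100 and 113700 in Col-0, and 0 of the 6 markers passed the test. Markers of green tissue summed to 61.7 to 118 in asf1a1b and 19.6 to 28.6 in Col-0, with 3 of 5 tested higher. Those of the seed coat summed to 5.68 to 8.09 and 1.38 to 2.77, but 4 of the 5 were below the level tested. In asf1a1b the sum rested mainly on PRX36, the 1 tested, which was higher (means 5.35 against 0.819 in Col-0). Of the rest, TT10 and MUM2 were higher on average, BAN was near level (0.092 and 0.0877) and MUM4 was lower (0.712 and 0.799). Of 5 markers of young endosperm none reached the level tested, and IKU2 was at 0 in every library. The replicate 1 libraries of both genotypes stood apart on the second principal component (18.9% of the variance), so results are also given without both of them. On the first (69.5%), asf1a1b replicate 1 lay at -17.79, against -47.69 and -45.94 for asf1a1b replicates 2 and 3. The Col-0 libraries lay at 31.73 to 41.12 there, so within the mutant replicate 1 was the nearest to Col-0. Replicate 1 thus did not stand apart in the same way in both genotypes.

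**Figure D1:**
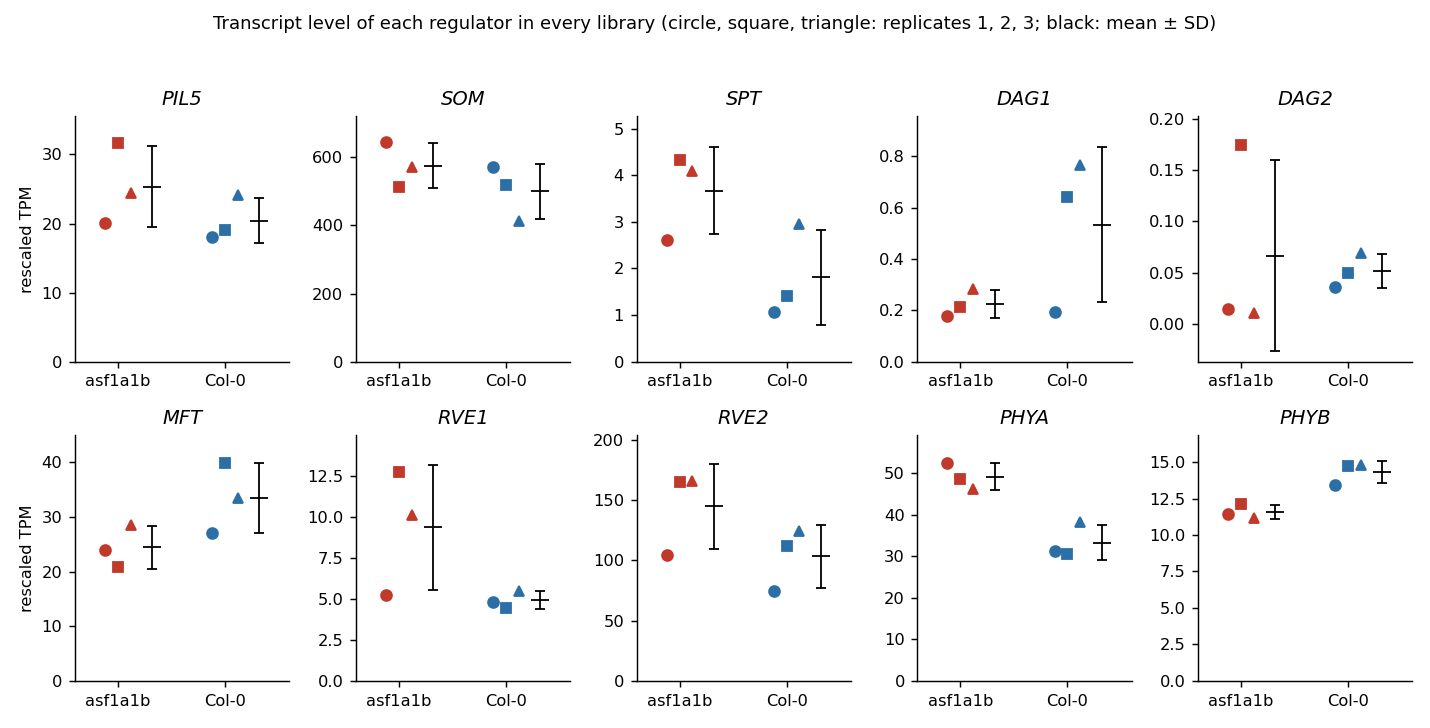
Rescaled TPM (vertical axis, linear, a separate scale for each gene) of the 10 regulators in the 3 asf1a1b libraries (left, red) and the 3 Col-0 libraries (right, blue), with replicates as circle, square and triangle and the mean ± SD in black. PHYA is higher in all 3 asf1a1b libraries and PHYB is lower in all 3, while the points of the other 8 genes overlap between the genotypes.

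The 10 genes spanned a wide range of levels, and SOM stood far above the rest. Per transcript length, the order in asf1a1b was SOM, RVE2, PHYA, PIL5, MFT, PHYB, RVE1, SPT, DAG1 and DAG2, with mean levels of 575, 144.9, 49.1, 25.4, 24.4, 11.6, 9.38, 3.67, 0.224 and 0.0663 rescaled TPM. In Col-0 the order differed only in that MFT stood level with PHYA and above PIL5, with 500.0 for SOM, 103 for RVE2, 33.5 for MFT, 33.3 for PHYA and 20.4 for PIL5, then 14.3, 4.94, 1.81, 0.533 and 0.0517 for PHYB, RVE1, SPT, DAG1 and DAG2. Neighbours whose libraries overlapped were PIL5 and MFT, and PHYB and RVE1, in asf1a1b, and MFT and PHYA in Col-0. SOM ranked 155th among all genes in asf1a1b and 177th in Col-0, and RVE2 ranked 569th and 839th. DAG1 and DAG2 were close to silent in both genotypes.

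Of the 8 regulators at a mean of at least 1 rescaled TPM, 1 passed the test between the genotypes and 7 did not. The test was limma on log2(rescaled TPM + 1) across 14663 genes, with a Benjamini-Hochberg adjusted p under 0.05. It called 30.6% of all tested genes, 16.1% higher and 14.5% lower in asf1a1b, so 1 of 8 is no more than the background. Without adjustment 5 of the 8 had a limma p under 0.05, but the share of all tested genes at that p was not counted. No excess over the background can be read from it. The median log2 fold change of the 8 was 0.39, with 6 positive and 2 negative. Over all tested genes it was 0.01, with 7423 of 14663 positive. Groups did not overlap for 2 of the 8, PHYA and PHYB, and for 47.5% of all tested genes. In seeds sampled whole, fewer cells of a type and less RNA per cell cannot be told apart.

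Sequence before the gene starts was read for the binding motifs of these factors, because PIL5 and SPT belong to the bHLH class that binds the G-box and RVE1 and RVE2 to the class that binds the evening element. Each window ran from 250 bases before to 50 bases after the start annotated in RefSeq TAIR10.1, and both strands were searched. The G-box CACGTG was found in 4 of the 10 windows, those of SPT, RVE1, RVE2 and PHYB, and in 7.68% of the 27443 windows of all nuclear protein-coding genes. The related box CACATG was found before SOM and RVE2 (12.9% of all windows), and before SOM its matches at 53 and 51 bases overlap on opposite strands as 1 palindrome. AATATCT, the core of the evening element, was found for DAG1, DAG2 and RVE2 (11.5% of all), and the RY repeat CATGCA for SOM alone among the 10 (9.72% of all). PIL5, MFT and PHYA held none of the 4 motifs in this window.

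The 250 bases before the start are printed for the holders of a G-box, which are 3 genes higher and 1 lower on average in the mutant, and for PHYA, the gene that passed. They lie at chr4:17413833-17414082 on the plus strand for SPT, chr5:5692993-5693242 on the minus strand for RVE1, chr5:14753089-14753338 on the minus strand for RVE2, chr2:8139506-8139755 on the plus strand for PHYB and chr1:3100820-3101069 on the minus strand for PHYA. Each is written 5′ to 3′ along its gene, with matches to any of the 4 motifs in capitals.
SPT: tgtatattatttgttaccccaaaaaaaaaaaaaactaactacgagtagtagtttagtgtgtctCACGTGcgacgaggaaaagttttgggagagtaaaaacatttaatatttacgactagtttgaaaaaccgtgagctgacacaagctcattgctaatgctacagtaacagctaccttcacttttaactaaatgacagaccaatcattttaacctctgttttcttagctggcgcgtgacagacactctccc
RVE1: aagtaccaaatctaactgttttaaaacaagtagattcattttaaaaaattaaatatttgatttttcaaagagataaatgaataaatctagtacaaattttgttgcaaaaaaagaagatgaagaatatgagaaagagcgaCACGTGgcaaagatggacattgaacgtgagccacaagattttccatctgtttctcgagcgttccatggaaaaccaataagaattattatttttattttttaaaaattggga
RVE2: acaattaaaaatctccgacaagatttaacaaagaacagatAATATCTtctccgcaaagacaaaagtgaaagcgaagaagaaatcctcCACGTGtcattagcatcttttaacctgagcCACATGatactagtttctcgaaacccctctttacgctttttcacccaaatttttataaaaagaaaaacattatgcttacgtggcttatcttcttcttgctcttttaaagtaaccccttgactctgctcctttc
PHYB: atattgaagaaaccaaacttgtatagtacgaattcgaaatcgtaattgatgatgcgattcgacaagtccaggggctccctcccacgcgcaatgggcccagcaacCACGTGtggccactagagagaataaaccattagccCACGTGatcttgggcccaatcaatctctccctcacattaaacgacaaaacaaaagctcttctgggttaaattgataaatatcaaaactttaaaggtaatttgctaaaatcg
PHYA: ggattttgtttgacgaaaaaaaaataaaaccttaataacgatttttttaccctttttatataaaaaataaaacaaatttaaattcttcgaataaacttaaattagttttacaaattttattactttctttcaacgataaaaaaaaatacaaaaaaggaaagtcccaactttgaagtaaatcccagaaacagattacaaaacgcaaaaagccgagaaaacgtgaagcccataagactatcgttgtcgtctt

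The G-box begins 187 bases before the start of SPT, 111 before RVE1 and 163 before RVE2, and PHYB has 2, at 146 and 111 bases. RVE2 alone of the 10 also has the CACATG box (133 bases) and the evening element core (210 bases) in its window. These are matches of letters and were not tested as binding sites.

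Of the photoreceptors PHYA rose in the mutant, while PHYB was slightly lower and did not pass. PHYA (AT1G09570; chromosome 1, 3095160 to 3100819, minus strand of TAIR10.1, 5 to 6 exons), the receptor for far-red and very low light, stood at 52.6, 48.6 and 46.2 rescaled TPM in the mutant (asf1a1b replicates 1, 2 and 3) and at 31.3, 30.4 and 38.1 in Col-0 replicates 1, 2 and 3. Values per library keep this order of replicates throughout. Every asf1a1b library was above every Col-0 library. The means of 49.1 ± 3.23 and 33.3 ± 4.23 (SD, n = 3 each) differ 1.48 times (log2 fold change 0.55, SE 0.12, adjusted p = 0.0152 in limma). The value rests on 5113 to 10441 recovered reads per library. The call ended narrowly without asf1a1b replicate 2 or 3 (limma adjusted p = 0.0506 and 0.0515) and without Col-0 replicate 2 (0.0709), at log2 fold changes of 0.56, 0.60 and 0.49. With both replicate 1 libraries left out it held at 0.46 (limma adjusted p = 0.0159). The summed green tissue markers given above were higher in the same libraries, although RBCS3B and RCA did not pass (limma adjusted p = 0.225 and 0.636). The part of these markers in the PHYA difference was not tested.

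PHYB (AT2G18790; chromosome 2, 8139756 to 8144461, plus strand, 3 to 4 exons), the stable red light receptor that drives the reversible germination response, had 11.5, 12.1 and 11.2 rescaled TPM in asf1a1b and 13.4, 14.8 and 14.8 in Col-0. All mutant libraries lay below all wild-type libraries, by a small margin. The log2 fold change was -0.28 ± 0.11 (SE) with a 95% interval of -0.53 to -0.04, and it did not pass (limma adjusted p = 0.078). It did pass under median-of-ratios scaling (-0.35, limma adjusted p = 0.0438), without Col-0 replicate 1 (-0.33, 0.0486) and with both replicate 1 libraries left out (-0.32, 0.0332).

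The ratio of PHYA to PHYB within a library does not depend on scaling between libraries. It was 4.59, 4.00 and 4.13 in asf1a1b replicates 1, 2 and 3. In Col-0 replicates 1, 2 and 3 it was 2.33, 2.06 and 2.58, with no overlap. Every asf1a1b library was higher in PHYA and lower in PHYB than every Col-0 library. The separation of the ratios and their p-value therefore follow from the levels of both genes and are no further evidence. On the log2(rescaled TPM + 1) scale the difference between the genotypes was 0.84, with an exact two-sided permutation p = 0.1, which is the smallest that 3 against 3 libraries allow (p = 0.2 adjusted over the 4 pairs of regulators compared). As a share of the summed rescaled TPM of PHYA to PHYE, PHYA made up 35.2% ± 1.0 in asf1a1b and 25.0% ± 3.03 in Col-0 (SD, n = 3 each), and PHYB 8.31% ± 0.479 and 10.7% ± 0.139. PHYC held 5.005% and 6.53%, PHYE 26.2% and 32.0%, and PHYD 25.3% and 25.7%. The 5 shares were compared with the exact two-sided permutation test; it gave p = 0.1 for PHYA, PHYB, PHYC and PHYE and 0.8 for PHYD (adjusted over the 5, 0.125 and 0.8). Because the shares add up to the whole, a higher share of PHYA lowers the others, so they are not separate results. By level PHYC, PHYD and PHYE did not pass (limma adjusted p = 0.128, 0.811 and 0.198). The summed level of the 5 phytochrome genes was 135 to 146 in asf1a1b and 126 to 138 in Col-0.

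**Figure D2:**
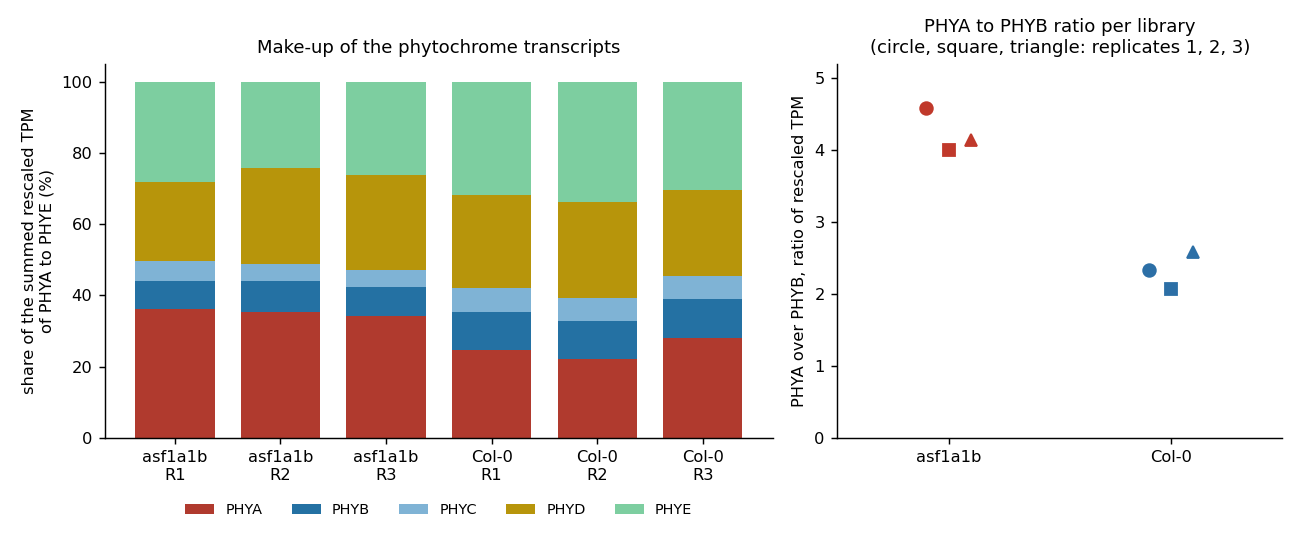
Left, stacked bars give the share (%) of each phytochrome gene in the summed rescaled TPM of PHYA to PHYE, for the 3 asf1a1b and then the 3 Col-0 libraries. Right, points give the PHYA to PHYB ratio per library on a linear axis from 0. The asf1a1b libraries lie at 4.00 to 4.59 and the Col-0 libraries at 2.06 to 2.58, a separation that follows from the levels of both genes.

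The PIL5 branch showed no called difference at its top. PIL5 (AT2G20180; chromosome 2, 8704024 to 8707009, minus strand, 5 to 9 exons) had 20.1, 31.6 and 24.4 rescaled TPM in asf1a1b and 18.0, 19.1 and 24.1 in Col-0. The genotypes overlapped, with asf1a1b replicate 2 highest. The log2 fold change was 0.29 with a 95% interval of -0.14 to 0.72 (limma adjusted p = 0.268). It was 0.12 without asf1a1b replicate 2 and 0.44 without asf1a1b replicate 1, neither of which passed (limma adjusted p = 0.651 and 0.0974). PIL5 overlaps AT2G20170 on the other strand, which had 6 recovered reads in all 6 libraries.

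SOM (AT1G03790; chromosome 1, 954290 to 956144, plus strand, 1 exon), the CCCH zinc finger protein whose gene PIL5 binds and activates in imbibed seeds, had 643, 512 and 570 rescaled TPM in asf1a1b and 570, 517 and 413 in Col-0. The ranges overlapped, with asf1a1b replicate 1 highest and Col-0 replicate 3 lowest. From 27161 to 39927 recovered reads per library, the log2 fold change was 0.21 with a 95% interval of -0.19 to 0.61 (limma adjusted p = 0.382). SOM passed under none of the alternative fits that were run, and its log2 fold change lay between 0.08 and 0.31 when 1 library was left out.

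SPT (AT4G36930; chromosome 4, 17414083 to 17416386, plus strand, 7 exons) was low, at 2.60, 4.32 and 4.08 rescaled TPM in asf1a1b and 1.06, 1.40 and 2.96 in Col-0. Col-0 replicate 3 lay above asf1a1b replicate 1 and so the groups overlapped. The mean was 2.03 times as high in the mutant, from 667 recovered reads over its 3 libraries against 308 in Col-0. The log2 fold change of 0.77 ± 0.27 (SE) had an adjusted p of 0.0651 in limma and did not pass. With the replicate number as a block, which compares same-numbered libraries, it passed (limma adjusted p = 0.0184). No label names a shared batch, and outside replicate 1 correlations between libraries did not set the numbers apart as pairs. It also passed without asf1a1b replicate 1 (0.95, limma adjusted p = 0.0406), without Col-0 replicate 3 (1.05, 0.0206) and with both replicate 1 libraries left out (0.75, 0.0144). The ratio of PIL5 to SPT within a library was 7.70, 7.32 and 5.99 in asf1a1b and 17.0, 13.6 and 8.13 in Col-0, with no overlap; the log2 difference was -0.48 (exact two-sided permutation p = 0.1, adjusted over the 4 pairs 0.2) and -0.78 with a pseudocount of 0.1.

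The RVE genes were both higher on average in the mutant without passing in the fit of all libraries. RVE1 (AT5G17300; chromosome 5, 5690225 to 5692992, minus strand, 5 to 6 exons), which promotes primary dormancy and represses the gibberellin synthesis gene GA3OX2, had 5.26, 12.8 and 10.12 rescaled TPM in asf1a1b and 4.84, 4.47 and 5.51 in Col-0. Replicates 2 and 3 of the mutant were above every Col-0 library, while asf1a1b replicate 1 lay within the Col-0 range. The log2 fold change was 0.74 ± 0.27 (SE, limma adjusted p = 0.0773). With the replicate block RVE1 passed (limma adjusted p = 0.0463), and without asf1a1b replicate 1 the value was 1.06 (limma adjusted p = 0.00416), or 1.05 with both replicate 1 libraries left out (0.000337).

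RVE2 (AT5G37260; chromosome 5, 14751344 to 14753088, minus strand, 5 exons), the homologue of RVE1 that acts beside it in dormancy, had 104, 165 and 166 rescaled TPM in asf1a1b and 74.2, 112 and 124 in Col-0. Replicate 1 was the lowest library of each genotype, and each asf1a1b library was above its same-numbered Col-0 library. The log2 fold change was 0.49 with a 95% interval of -0.09 to 1.06 (limma adjusted p = 0.17). It was 0.27 without Col-0 replicate 1 and 0.70 without asf1a1b replicate 1, neither of which passed (limma adjusted p = 0.374 and 0.0517). Under the replicate block the same 0.49 had an SE of 0.10 and passed (limma adjusted p = 0.0113), as it did with both replicate 1 libraries left out (0.48, 0.0102). RVE1 stood at 0.0503, 0.0776 and 0.0611 of the RVE2 level in asf1a1b and at 0.0652, 0.0400 and 0.0444 in Col-0, and these ratios overlapped (log2 difference 0.25, exact two-sided permutation p = 0.4, also 0.4 adjusted over the 4 pairs).

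MFT (AT1G18100; chromosome 1, 6227217 to 6230194, minus strand, 4 exons) leaned the other way, at 24.0, 20.8 and 28.5 rescaled TPM in asf1a1b and 27.2, 39.9 and 33.5 in Col-0. The asf1a1b replicate 3 value was above that of Col-0 replicate 1, so the groups overlapped. The log2 fold change was -0.44 ± 0.17 (SE) with a 95% interval of -0.84 to -0.03, and it did not pass (limma adjusted p = 0.0929). It passed without Col-0 replicate 1 (-0.57, limma adjusted p = 0.0307) and with both replicate 1 libraries left out (-0.57, 0.0148). MFT overlaps AT1G18090 and a long noncoding RNA gene, AT1G05383, both on the other strand, with 194 and 18 recovered reads over the 6 libraries against 3750 over the asf1a1b libraries and 4916 over the Col-0 libraries for MFT. Whether the counting used strand is not given.

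DAG1 and DAG2 were below the level tested. DAG1 (AT3G61850; chromosome 3, 22895268 to 22897732, plus strand, 2 to 3 exons), a repressor of light-triggered germination and of GA3OX1, had 13, 22 and 25 recovered reads in asf1a1b and 16, 52 and 67 in Col-0. That is 0.178, 0.212 and 0.283 rescaled TPM in asf1a1b and 0.192, 0.642 and 0.766 in Col-0. Col-0 replicate 1 lay within the mutant range and the other two Col-0 libraries above it (exact two-sided permutation p = 0.3). DAG2 (AT2G46590; chromosome 2, 19132925 to 19135383, plus strand, 1 to 2 exons) had 1, 18 and 1 reads in asf1a1b and 3, 4 and 6 in Col-0. A single mutant library, replicate 2, held 18 of the 20 reads of asf1a1b. At these counts no difference was detectable for DAG2.

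**Figure D3:**
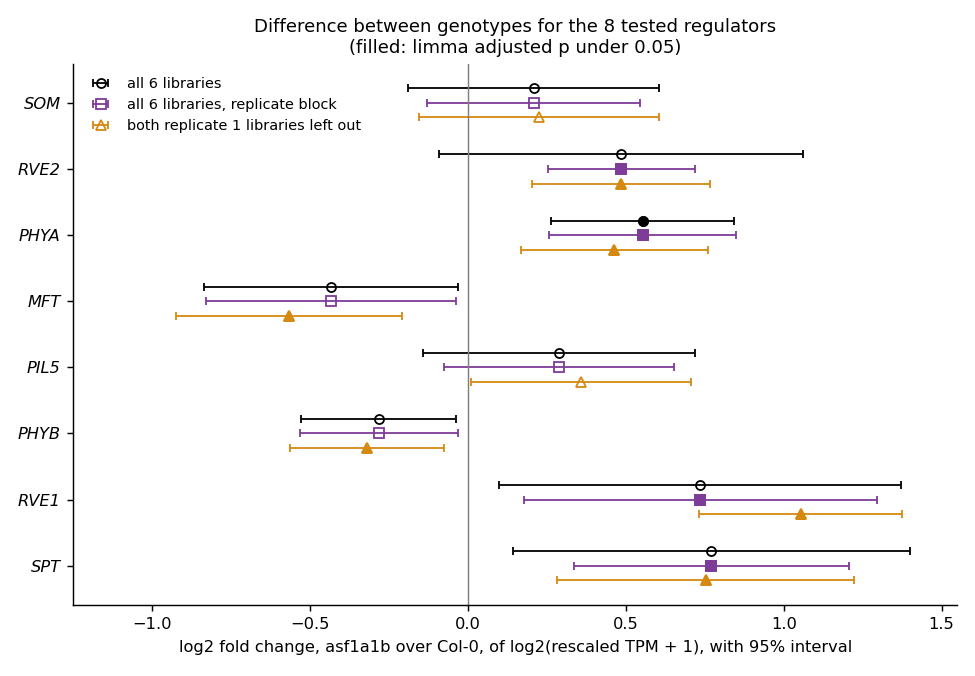
Log2 fold change of asf1a1b over Col-0 on the log2(rescaled TPM + 1) scale (horizontal axis) with its 95% interval for the 8 tested regulators, highest mean level at the top; circles are the fit of all 6 libraries, squares add the replicate block, triangles leave out both replicate 1 libraries, and filled symbols passed. In the fit of all libraries PHYA alone is filled; the block adds RVE2, RVE1 and SPT, and leaving out replicate 1 adds MFT and PHYB as well.

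Counted together, 4 of the 8 tested regulators passed with the replicate block, PHYA, SPT, RVE1 and RVE2. In that fit 39.7% of all tested genes passed, and its pairing by number was set apart by the correlations for replicate 1 alone. With both replicate 1 libraries left out 6 of 8 passed, against 51.8% of all. The authors' deposited table lists 9 of the 10 genes and gives SPT, RVE1, PHYA and PHYB an adjusted p under 0.05 (0.0479, 0.0153, 0.00161 and 0.032, with log2 fold changes of 1.0, 0.91, 0.54 and -0.32), against 38.5% of the genes listed there. In the authors' deposited table none of the 9 is marked up or down, a mark that 8.76% of its genes carry and that starts at a log2 fold change of 1.5 in size.

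Other genes of the same pathways were followed as lists, which include the regulators themselves. Each count of called genes stands against 30.6% called of all tested genes, 39.7% with the replicate block and 51.8% with both replicate 1 libraries left out. Among 14 photoreceptor genes, 2 rose, 3 fell and 9 did not pass, with a median log2 fold change of -0.05; 5 called of 14 is near the 30.6% of all tested genes. PHOT1, the blue light receptor of phototropism, fell to 25.7 ± 4.60 rescaled TPM in asf1a1b, against 53.5 ± 8.66 in Col-0 (SD, n = 3 each; log2 fold change -1.03, limma adjusted p = 0.00529). CRY2, a blue light receptor, had 82.3 ± 3.24 and 60.7 ± 9.85 (0.44, limma adjusted p = 0.0415), and CRY3, a cryptochrome of the DASH type, 1.32 ± 0.631 and 2.77 ± 0.680 (-0.72, limma adjusted p = 0.0471). LKP2, named after its values were seen, also fell (-0.39, limma adjusted p = 0.0385), and its call ended whichever library was left out (limma adjusted p 0.0585 to 0.11), with both replicate 1 libraries left out (0.0628) and with equal totals (0.052). Of the fits that left out 1 library, CRY2 kept its call in the one without Col-0 replicate 1 and CRY3 in those without asf1a1b replicate 1 or Col-0 replicate 3, and both lost it in the rest (limma adjusted p up to 0.152 and 0.165). CRY2 also lost it under median-of-ratios scaling (0.0659), on recovered reads with limma-voom (0.0618, and 0.0685 with no filter) and, like CRY3 (0.0836), in limma with no filter (0.0526). Both kept it with the replicate block (0.034 for CRY2 and 0.0143 for CRY3) and with both replicate 1 libraries left out (0.00209 and 0.00264).

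Of 7 tested PIF and related bHLH genes, PIL5 and SPT among them, 0 rose and 1 fell, and 9 of the 16 listed were below the level tested. The gene that fell was PIF7, a bHLH factor of the shade response, at 0.412 ± 0.0231 in asf1a1b and 2.65 ± 0.579 in Col-0 (SD, n = 3 each; log2 fold change -1.36, limma adjusted p = 0.00173). With the replicate block, and also with both replicate 1 libraries left out, 3 rose and 1 fell. PIF4, named after its values were seen, had 2.91 ± 2.19 in asf1a1b and 0.847 ± 0.0975 in Col-0 (SD, n = 3 each). It did not pass (0.95, limma adjusted p = 0.0675), while the authors' deposited table marks it up (1.75). Its asf1a1b replicate 1 stood at 5.44, and replicates 2 and 3 at 1.64 each. Among 17 light signalling genes, 0 rose and 1 fell (1 and 2 with the replicate block, 0 and 3 under median-of-ratios scaling, and 1 and 8 with both replicate 1 libraries left out, a fit that called 51.8% of all tested genes). HMR, which takes part in phytochrome signalling and plastid transcription, had 6.44 ± 2.28 and 15.7 ± 3.93 (-1.19, limma adjusted p = 0.012), and lost its call without asf1a1b replicate 3 (0.0524). HMR, PIF7, LKP2 and FLC each overlap a neighbouring gene on the other strand.

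Genes on which PIL5, SPT, DAG1, SOM or RVE1 are known to act gave 0 higher and 4 lower of 13 tested, with a median log2 fold change of -0.22 (2 higher and 5 lower with the replicate block, 2 and 6 with both replicate 1 libraries left out). The 4 of 13 are close to the 30.6% called of all tested genes. The abscisic acid hydroxylase gene CYP707A2, which SOM holds down, had a log2 fold change of -2.40 (limma adjusted p = 0.005), and ABI4 one of -0.98 (0.00457). JMJ22, a histone arginine demethylase of the phytochrome B germination response, fell to 3.79 ± 0.338 rescaled TPM in asf1a1b, against 6.75 ± 0.182 in Col-0 (SD, n = 3 each; -0.70, limma adjusted p = 0.00593), whereas its partner JMJ20 had 14.3 ± 1.26 and 12.6 ± 0.194 and did not pass (limma adjusted p = 0.267). The fourth, NCED9, was named after its values were seen (-0.49, limma adjusted p = 0.0409); it lost its call in 4 of the 6 fits that left out 1 library, all but those without Col-0 replicate 1 or asf1a1b replicate 2 (at most 0.154, limma adjusted p), and with no filter (0.0705), a mean of at least 5 (0.0591), equal totals (0.0734), the 20 highest genes left out (0.0588) or limma-voom with no filter (0.0539). GA3OX1 and GA3OX2, the gibberellin synthesis genes that DAG1 and RVE1 repress, had 2 and 0 recovered reads over the asf1a1b libraries and 0 and 1 over the Col-0 libraries, so no difference was detectable.

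Among the relatives of RVE1 and RVE2 the clock genes CCA1 and LHY and the family member RVE4 rose. Of 10 tested genes of the RVE and CCA1 family, 3 rose, 0 fell and 7 did not pass, with 9 positive log2 fold changes and a median of 0.38; 5 rose with the replicate block and 7 without both replicate 1 libraries. Of all tested genes 16.1% rose, or 3067 of 14663 with the block and 3937 of 14655 without both replicate 1 libraries. Called in either direction were 30.6% of all tested genes, 39.7% with the block and 51.8% without both replicate 1 libraries. The 3 of 10 are close to the 30.6%. The log2 fold change was positive for 7423 of the 14663. CCA1 and LHY, the morning factors of the clock, had 3.81 ± 1.79 and 1.83 ± 0.545 rescaled TPM in asf1a1b and 1.05 ± 0.23 and 0.521 ± 0.259 in Col-0 (SD, n = 3 each; log2 fold changes 1.15 and 0.89, limma adjusted p = 0.024 and 0.0166). RVE4 had 91.6 ± 13.0 and 59.5 ± 4.58 (0.61, limma adjusted p = 0.0158). Of 12 other clock genes 1 rose and 1 fell. PRR5, an evening repressor of the clock, had 25.9 ± 12.1 in asf1a1b and 4.81 ± 2.80 in Col-0 (2.21, limma adjusted p = 0.0141), and CHE, a TCP factor that represses CCA1, had 0.794 ± 0.0685 and 1.80 ± 0.302 (-0.64, limma adjusted p = 0.0152). Each of CCA1, RVE4, PRR5 and CHE lost its call without asf1a1b replicate 2 or 3 (at most 0.0995, limma adjusted p), and LHY did so without asf1a1b replicate 3 (0.0724) and was below the level tested without asf1a1b replicate 2. The call also ended without Col-0 replicate 2 for CCA1, LHY and CHE (0.0737, 0.0528 and 0.0656), and without Col-0 replicate 3 for CHE (0.0556).

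**Figure D4:**
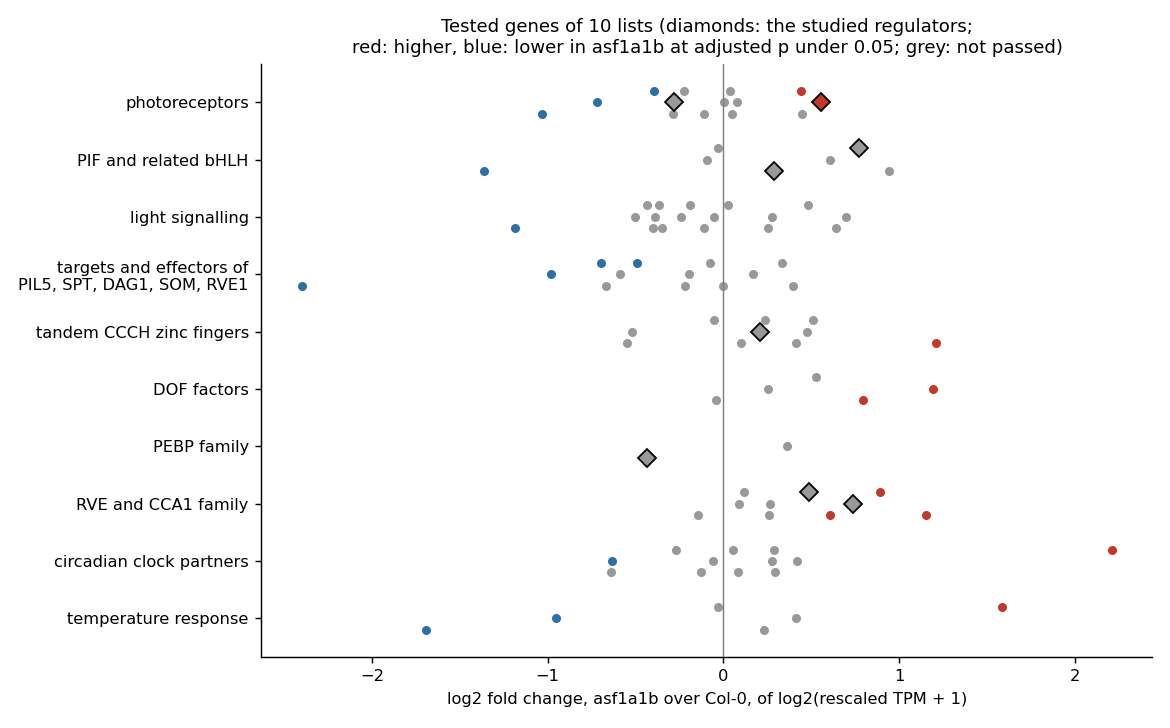
Log2 fold change of asf1a1b over Col-0 on the log2(rescaled TPM + 1) scale (horizontal axis) for the tested genes of 10 lists (rows); diamonds are the studied regulators and circles the other genes, red for higher, blue for lower and grey for not passed. In the RVE and CCA1 family 9 of 10 points lie right of 0, against 7423 of 14663 among all tested genes.

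Among the other families, 1 of 10 tested tandem CCCH zinc finger genes rose and 0 fell. It was TZF2, at 20.8 ± 4.58 in asf1a1b and 9.33 ± 6.23 in Col-0 (SD, n = 3 each; 1.21, limma adjusted p = 0.0453), and its call held only without Col-0 replicate 1 when 1 library was left out (up to 0.138 in the others); it also ended with no filter (0.0832) and with a mean of at least 5 (0.0503). Of 18 Dof genes 13 were below the level tested, as DAG1 and DAG2 were, and of the other five 2 rose and 0 fell. SCAP1, a guard cell factor, had a log2 fold change of 1.19 (limma adjusted p = 0.0226; up to 0.0848 without asf1a1b replicate 2 or 3 or Col-0 replicate 2 or 3). CDF3, of the cycling Dof group, had 12.1 ± 1.17 and 6.53 ± 0.423 (0.80, limma adjusted p = 0.00422). In the PEBP family, to which MFT belongs, MFT and BFT reached the level tested and 0 passed in limma (BFT limma adjusted p = 0.158). Of 6 tested temperature response genes 1 rose, the dormancy gene DOG1 (1.59), and 2 fell, FLC (-1.69) and ICE2 (-0.95), a relative of the cold factor ICE1; these had limma adjusted p of 0.000827, 0.00416 and 0.0056.

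The profile of PHYA over the 6 libraries was closest to those of AT3G08680 and AT1G22950. The root mean square difference from PHYA, in log2(rescaled TPM + 1) centred on each gene's mean, was 0.0601 and 0.0618. AT3G08680 had 1.57 ± 0.127 rescaled TPM in asf1a1b and 0.653 ± 0.212 in Col-0, and AT1G22950 6.69 ± 0.835 and 4.24 ± 0.552 (SD, n = 3 each). At levels as low as those of AT3G08680 the added 1 shrinks differences, so its closeness to PHYA depends on that addition.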

How the data were processed

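The deposited signal values, named TPM by the file, were summarised by the authors per gene and library; reads were handled with HISAT2 2.2.1 and fastp 0.23.4 on TAIR10, per the submitters' processing notes. Counter, annotation, strand setting and rescaling are not given. The authors' deposited table of log2 fold changes, p-values and adjusted p-values covers 15257 genes and repeats the same values; its test is not given either. Columns left unused numbered 0.

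Members and gene lists were chosen with earlier results of these data known. Genes with a mean of at least 1 (14663) were tested on log2(value + 1), which understates changes of low genes, with limma 3.58.1 in R 4.3.3 (two-sided, eBayes with trend, a genotype term alone, Benjamini-Hochberg over all of them, threshold 0.05). Pairs of regulators were compared with exact permutation tests. Named genes are the 10 members, ASF1A and ASF1B, up to 3 called genes per list by size of change, and the 2 genes closest to a called member. Of the 14 lists, 4 hold tissue markers. Python 3.11.15 served for the rest, and the tests were tried on simulated data.

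Reads were recovered for 32548 genes with a matched exon length in RefSeq TAIR10.1, as whole multiples of 1 step per library: 99.3% to 99.42% of checked values under 200 reads lay within 0.1 of a whole number.

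Pairing was checked on each library's deviation from its genotype mean. Across genes, libraries of 1 number correlated at 0.427, 0.144 and 0.327 for replicates 1, 2 and 3. Each was over 0.1 and so met the rule used for a block by the numbers in the titles. No label names a shared batch, and other combinations correlated as well: 0.381 for asf1a1b replicate 2 and Col-0 replicate 3, above its 0.144, and 0.1 for asf1a1b replicate 3 and Col-0 replicate 2. Outside replicate 1 the numbers are therefore not set apart by these values.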

Additional observations from a re-analysis of the deposited data

How the results depend on the processing

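Leaving out 1 library gave 1767 to 4999 genes past the threshold in place of 4494 (1767 without asf1a1b replicate 3, 2346 without asf1a1b replicate 2 and 2122 without Col-0 replicate 2), 2544 passed with a mean of at least 5, and 7588 passed with both replicate 1 libraries left out, an alternative chosen after seeing the data, as was limma-voom with no filter. The replicate block gave 5825; among the regulators it added calls for SPT (log2 fold change 0.77), RVE1 (0.74) and RVE2 (0.49) and ended none. Leaving out both replicate 1 libraries added SPT (0.75), MFT (-0.57), RVE1 (1.05), RVE2 (0.48) and PHYB (-0.32), and median-of-ratios scaling added PHYB (-0.35). With 1 library left out the log2 fold changes ran from 0.12 to 0.44 for PIL5, 0.08 to 0.31 for SOM, 0.58 to 1.05 for SPT, -0.57 to -0.30 for MFT, 0.49 to 1.06 for RVE1, 0.27 to 0.70 for RVE2, 0.49 to 0.65 for PHYA and -0.33 to -0.26 for PHYB, and, untested, -0.48 to -0.19 for DAG1 and -0.05 to 0.05 for DAG2. DAG1 and DAG2, low in reads, had log2 fold changes of -0.31 and 0.02 with a pseudocount of 1 and no test; these were -1.06 and -0.52 with limma-voom on recovered reads and no filter (adjusted p = 0.222 and 0.689), and -0.83 for DAG1 with a pseudocount of 0.1. For that pseudocount the log2 ratio of DAG1 to DAG2 differed by -0.84 in place of -0.32, and that of PIL5 to SPT by -0.78 in place of -0.48. The sign-flip test over same-numbered pairs cannot go below 0.25 for these ratios. The DAG2 value changed sign, as given; in the fits that tested DAG2 it was 0.02 in limma with no filter (limma adjusted p = 0.863) and -0.52 in limma-voom with no filter. No other result with a test changed direction under the alternatives run. Over the count of all genes, the members and the pairs, 200 alternative values kept their call, stayed within 1.5 times or lay within the spread; the causes of the others were not tested. For the other named genes 57 alternative values lost their call and 418 kept it.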
